A study of Homo sapiens with 6 samples.

Results

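Kinesins are motor proteins that use ATP to move along, or to take apart, microtubules. Mitotic kinesins build the spindle, align chromosomes and divide the cell, and their genes are mostly switched on late in the cell cycle, whereas cargo kinesins carry vesicles, endosomes, mitochondria and RNA through the cytoplasm of cells at any stage. In endothelium, cargo motors supply the surface with receptors and junction proteins, and resting vessels hold few dividing cells. The kinesin genes described here are all those whose name starts with KIF and a digit in the deposited tables: 33 rows with 32 names, of 18317 names in all. Among the 32, 29 are motor genes. They were divided by their known roles into 11 mitotic, 9 cargo and 9 other kinesins. The remaining 3 names are KIF1BP, a protein that binds kinesins, KIF28P, a pseudogene, and KIF9-AS1, an antisense transcript.

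The cells were HUVECs, primary endothelial cells of the human umbilical vein. They were transfected with 8OH-G miR-483, a miR-483 that carries the oxidised base 8-hydroxyguanine (3 libraries), or with unmodified miR-483 (3 libraries), and total RNA was sequenced from day 2. The comparison addresses how oxidation of the microRNA alters the messenger RNAs it acts on. Both groups received a miR-483 form, the scramble control that the protocol mentions was not analysed here, and the labels do not give the arm or the oxidised position, so a difference can come from either form. Levels are given as FPKM (fragment counts normalised to gene length and sequencing depth), a unit inferred from the values themselves and not certain. Read depth is unknown. The labels leave unsaid if each library had its own culture dish, and p-values here cover the spread between these libraries only, which may be technical.

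The libraries carried endothelial markers: all 9 of those listed were detected, with a summed level of 1288 to 1519 FPKM with 8OH-G miR-483 and 2067 to 2098 FPKM with miR-483, and 5 of the 9 fell with 8OH-G miR-483. The largest falls were those of TEK (log2 fold change -1.80), VWF (-1.07) and PECAM1 (-0.85). Of 5 leukocyte markers only LYZ had a row, with 0 to 0.179 FPKM with 8OH-G miR-483 and 3.66 to 4.32 FPKM with miR-483. Of 6 mural and fibroblast markers 3 had a row, with a summed level of 825 to 1018 FPKM with 8OH-G miR-483 and 620 to 841 FPKM with miR-483, nearly all of it RGS5. The groups of RGS5 overlapped and it did not pass (limma adjusted p = 0.0622), ACTA2 had 1.82 ± 0.111 FPKM with 8OH-G miR-483 and 1.85 ± 0.0417 FPKM with miR-483, and COL3A1 fell, at 1.26 ± 0.0851 FPKM with 8OH-G miR-483 and 2.33 ± 0.0651 FPKM with miR-483. No epithelial or erythroid marker of the lists had a row, and those markers were not analysed here. The part of these differences in the kinesin results was not tested. Mitochondrial genes held 71.3% to 76.6% of the summed values of a library. Replicate 1 of miR-483 stood apart with 2663 rows listed at 0, against 287 to 405 rows with 8OH-G miR-483 and 579 to 625 rows in the other miR-483 libraries, and without it all 11 mitotic kinesins were again called higher. Of 12712 genes tested with limma on log2(FPKM + 1), 34.9% passed as higher and 20.5% as lower in the 8OH-G miR-483 libraries, at an adjusted p of 0.05, and the median log2 fold change was 0.09. Genes called higher made up 63.0% of the calls with values as deposited, 51.6% once libraries were scaled by median ratios and 49.2% with quantile normalization, where the medians were 0.01 and -0.01.

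All 11 mitotic kinesins rose with 8OH-G miR-483, by a mean of 3.79-fold (KIF22) to 5.20-fold (KIF18B), and their median log2 fold change was 1.78. The 9 cargo kinesins went both ways: 3 rose, 2 fell and 4 missed the threshold, and their median was -0.02. These cargo counts lie near the shares of all genes called, 34.9% higher and 20.5% lower. Of 6 tested kinesins with other roles, 4 rose and 1 fell. In all 11 mitotic genes the 3 values with 8OH-G miR-483 lay above the 3 with miR-483. That was so for 39.5% of all genes tested, 23.7% were separated in the other direction, and 34.9% of all genes tested were called higher by limma. Each mitotic kinesin stood between the 97.3 and 99.4 percentile of log2 fold change over all genes tested. The cargo kinesins stood between the 8.65 and 76.5 percentile. KIF2A, a depolymerase of spindle poles and neurons, was placed among the other kinesins, in classes chosen with earlier results known. It stood at the 72.6 percentile with a 1.28-fold higher mean and overlapping groups, so the mitotic ranges depend on this placement. KIF15, KIF18A and, among the other kinesins, KIF24 entered the test only through their 8OH-G miR-483 libraries and so had to differ. With no filter on low values the mitotic count was again 11, and 3 other kinesins were called higher. In bulk RNA, more cells that express these genes and more RNA per cell cannot be told apart.

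**Figure D1:**
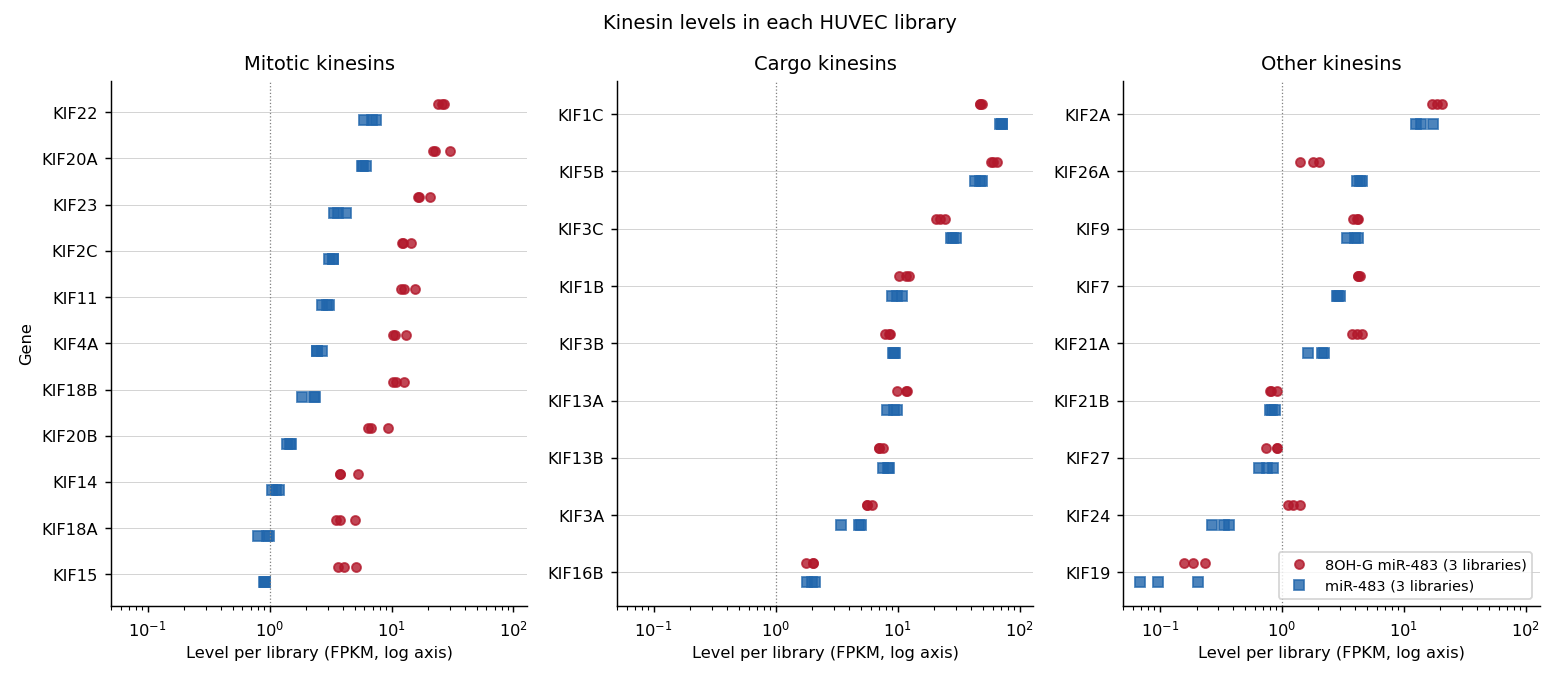
Level of each of 29 kinesin motor genes in each library (FPKM, log axis), with 3 libraries of 8OH-G miR-483 as circles above 3 of miR-483 as squares, and a dotted line at 1 FPKM. The circles lie to the right of the squares for all 11 mitotic kinesins, whereas KIF1C, KIF3B, KIF3C and KIF13B among the cargo kinesins and KIF26A among the others have circles to the left.

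**Figure D2:**
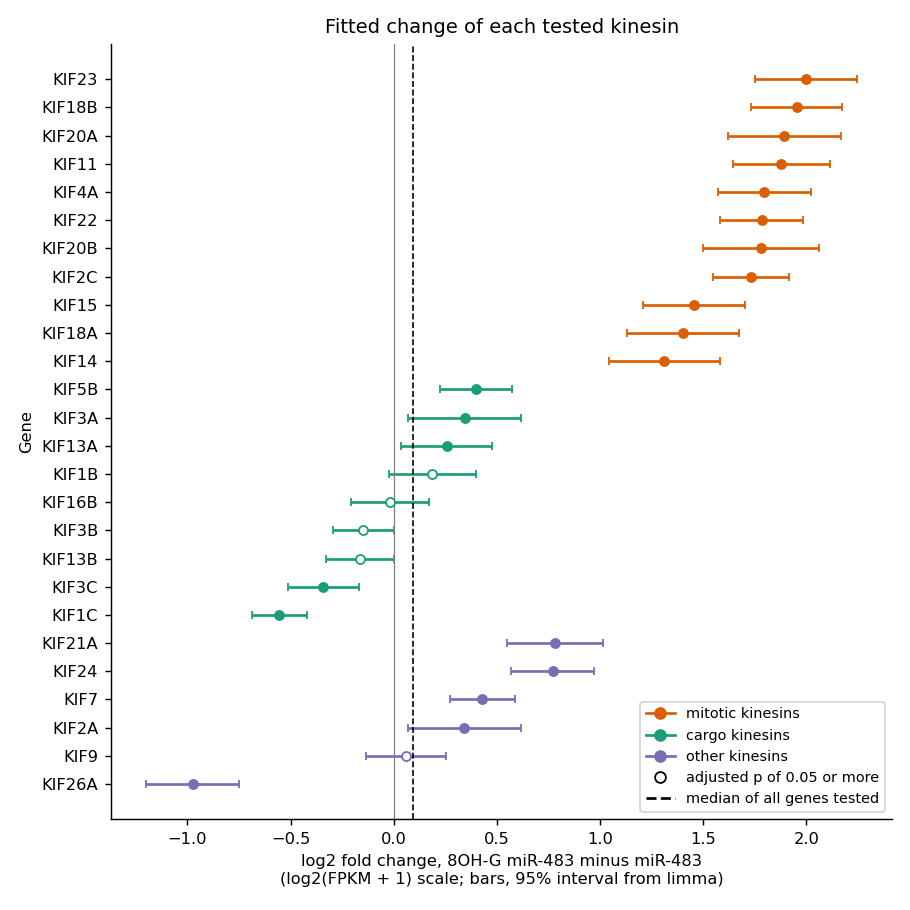
Fitted log2 fold change, 8OH-G miR-483 minus miR-483 (scale log2(FPKM + 1)), of the 26 tested motor genes, with 95% intervals from limma and open circles for an adjusted p of 0.05 or more. The mitotic kinesins lie between 1.31 and 2.00, and the dashed line marks the median of all genes tested, 0.09.

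Promoter sequences are shown for the 4 mitotic kinesins with the largest fitted rise, and for the cargo kinesins with the largest rise (KIF5B) and the largest fall (KIF1C), because genes of the late cell cycle often share short promoter elements. The CHR (cell cycle genes homology region) binds the MuvB core of the DREAM and MYB complexes, and the CCAAT box binds NF-Y. The sequences are RefSeq promoter windows on GRCh38.p14, a later build than the hg19 of the files, from 250 bases before to 50 after the annotated start, on the strand of the gene. Capitals mark CHR letters (TTTGAA or TTCGAA) and CCAAT, on either strand, and no capitals mean that neither was found. KIF23 is from chr15:69414099-69414398 on the plus strand, KIF18B from chr17:44947724-44948023 on the minus strand, KIF20A from chr5:138178862-138179161 on the plus strand, KIF11 from chr10:92592880-92593179 on the plus strand, KIF5B from chr10:32056376-32056675 on the minus strand and KIF1C from chr17:4997700-4997999 on the plus strand.
KIF23: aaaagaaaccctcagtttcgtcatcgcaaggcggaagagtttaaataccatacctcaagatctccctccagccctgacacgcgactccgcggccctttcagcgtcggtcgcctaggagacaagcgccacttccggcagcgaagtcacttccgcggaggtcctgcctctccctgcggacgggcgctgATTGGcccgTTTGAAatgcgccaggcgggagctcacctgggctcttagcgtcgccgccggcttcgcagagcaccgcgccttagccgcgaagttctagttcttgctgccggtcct
KIF18B: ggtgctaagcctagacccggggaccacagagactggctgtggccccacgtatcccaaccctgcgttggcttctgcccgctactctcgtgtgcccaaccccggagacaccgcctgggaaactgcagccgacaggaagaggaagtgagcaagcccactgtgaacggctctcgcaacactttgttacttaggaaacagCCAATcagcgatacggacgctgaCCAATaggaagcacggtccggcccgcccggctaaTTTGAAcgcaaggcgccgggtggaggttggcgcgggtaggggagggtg
KIF20A: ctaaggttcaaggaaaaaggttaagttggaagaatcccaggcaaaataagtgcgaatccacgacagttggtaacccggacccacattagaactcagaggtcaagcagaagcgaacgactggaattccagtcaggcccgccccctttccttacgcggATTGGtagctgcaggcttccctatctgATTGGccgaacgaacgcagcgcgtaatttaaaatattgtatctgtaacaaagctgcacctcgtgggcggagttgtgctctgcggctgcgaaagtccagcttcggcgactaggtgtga
KIF11: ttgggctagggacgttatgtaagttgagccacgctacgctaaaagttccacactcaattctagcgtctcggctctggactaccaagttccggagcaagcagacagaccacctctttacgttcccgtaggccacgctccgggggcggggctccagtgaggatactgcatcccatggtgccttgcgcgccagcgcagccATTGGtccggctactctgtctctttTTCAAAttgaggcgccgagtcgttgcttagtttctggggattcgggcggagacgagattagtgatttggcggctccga
KIF5B: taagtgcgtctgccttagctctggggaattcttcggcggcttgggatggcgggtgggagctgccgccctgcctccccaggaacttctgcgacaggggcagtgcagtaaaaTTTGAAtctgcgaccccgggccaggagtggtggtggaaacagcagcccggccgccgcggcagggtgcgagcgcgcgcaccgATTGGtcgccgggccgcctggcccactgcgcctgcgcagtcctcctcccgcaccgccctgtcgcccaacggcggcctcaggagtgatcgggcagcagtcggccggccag
KIF1C: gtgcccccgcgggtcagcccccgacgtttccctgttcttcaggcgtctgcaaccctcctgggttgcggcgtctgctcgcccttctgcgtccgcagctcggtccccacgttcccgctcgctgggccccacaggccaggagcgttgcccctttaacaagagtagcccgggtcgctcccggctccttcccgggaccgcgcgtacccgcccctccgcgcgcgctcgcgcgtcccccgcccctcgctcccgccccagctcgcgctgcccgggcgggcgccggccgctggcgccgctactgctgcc

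A promoter window was given for 26 of the 32 names. CHR letters were found for 9 of 11 mitotic kinesins (81.8%), 1 of 8 cargo kinesins (12.5%) and 1 of 6 other kinesins (16.7%), against 19.5% of 27305 genes in the promoter table. CCAAT was found for 9 of 11 mitotic and 3 of 8 cargo kinesins, against 39.7% of all genes. CHR letters and CCAAT stood together for 8 of 11 mitotic kinesins (72.7%), against 7.85% of all genes. In KIF11 the CCAAT match began 53 bases before the start and the CHR match 28 bases before it. KIF18B had CCAAT at 55 and 32 bases before the start and a CHR match from base 3 after it. KIF20A held CCAAT only, at 94 and 67 bases before its start. KIF15 had CHR letters only, and KIF2C had neither. Outside the mitotic class, KIF5B and KIF24, a centriole kinesin, held both. The E2F core letters GCGGGAA and GCGCGAA were in 0 of 11 mitotic windows, against 10.2% of all genes. Such matches describe the letters of these windows and do not show that a factor binds.

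**Figure D3:**
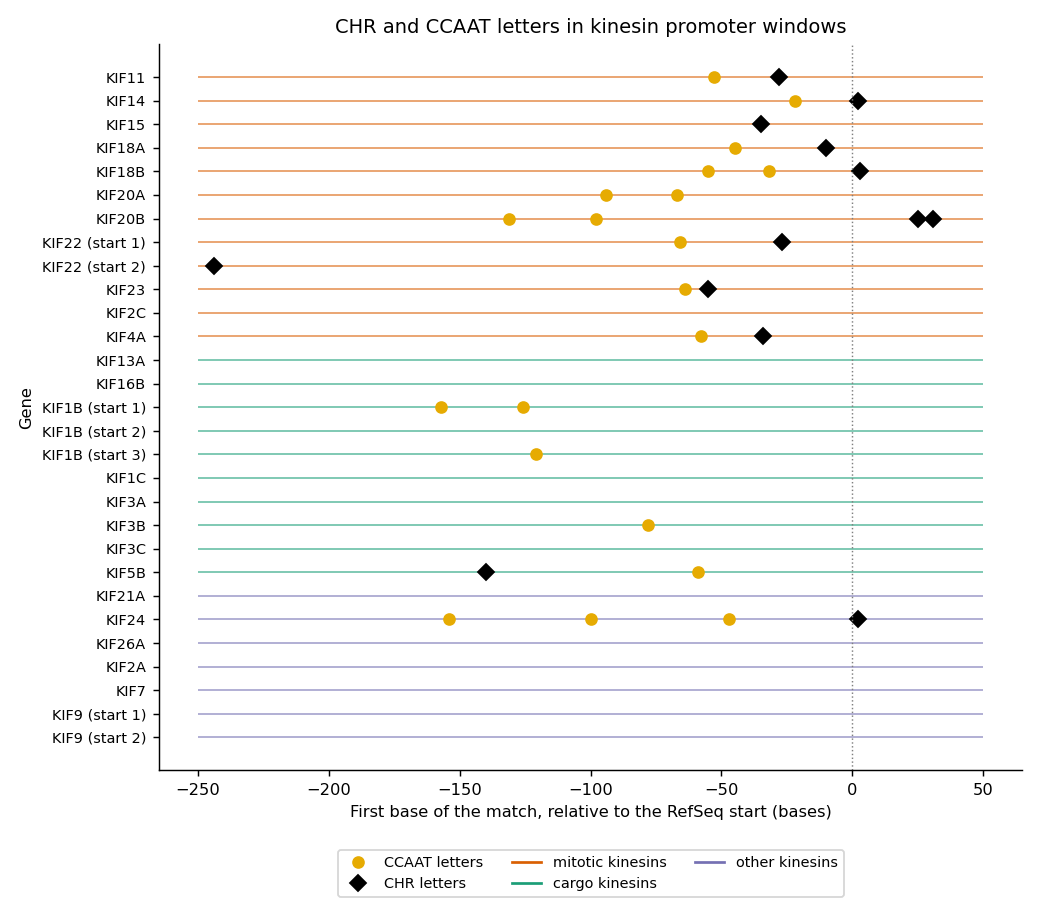
First base of each CHR match (diamonds) and CCAAT match (circles) relative to the RefSeq start, in the promoter window of each kinesin motor gene with an entry, with further rows for genes with several starts. In 8 of 11 mitotic kinesins a circle and a diamond share a row, and in all 8 a CCAAT match lies before the CHR match.

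The motors that set up the spindle came first among the mitotic roles. KIF11, which slides antiparallel microtubules apart to make the spindle bipolar, had 11.9, 12.7 and 15.6 FPKM with 8OH-G miR-483, against 2.93, 2.68 and 3.09 FPKM with miR-483. Its mean was 4.62-fold higher, at a log2 fold change of 1.88 (SE 0.103, limma adjusted p = 2.97e-06). KIF15, which can take over this work when KIF11 fails, had 3.62, 4.05 and 5.11 FPKM with 8OH-G miR-483 and 0.900, 0.910 and 0.913 FPKM with miR-483. The lowest library with 8OH-G miR-483 was thus above the highest with miR-483 for both, as for 39.5% of all genes tested. For KIF15 this separation was fixed by the filter, which it passed only through its 8OH-G miR-483 libraries. KIF15 had a repeated row, and in miR-483 replicate 1, the library with 2663 rows at 0, it was listed at 0 in its first row and at 0.900 FPKM in its second, so the higher value was used.

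Motors that move chromosomes and shorten microtubules rose alongside. KIF22, which pushes chromosome arms away from the spindle poles, had 24.0, 25.9 and 27.0 FPKM with 8OH-G miR-483, against 5.94, 7.39 and 6.94 FPKM with miR-483, and was the most abundant mitotic kinesin in each miR-483 library. KIF2C removes tubulin from microtubule ends and corrects faulty attachments to chromosomes. It had 12.4, 12.3 and 14.4 FPKM with 8OH-G miR-483 and 3.28, 3.31 and 3.05 FPKM with miR-483, a 4.05-fold higher mean. KIF18A, which damps chromosome movement at the metaphase plate, had 3.47, 3.81 and 5.04 FPKM with 8OH-G miR-483, against 0.997, 0.797 and 0.959 FPKM with miR-483. KIF18B limits the length of astral microtubules. Its levels were 10.8, 10.4 and 12.6 FPKM with 8OH-G miR-483 and 2.30, 1.86 and 2.34 FPKM with miR-483, a log2 fold change of 1.95 (SE 0.097, limma adjusted p = 2.03e-06). No library of either group reached the range of the other in these 4 genes. Such upward separation was seen for 39.5% of all genes tested. For KIF18A this separation was fixed by the filter, which it passed only through its 8OH-G miR-483 libraries.

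The motors of the central spindle and of cytokinesis made up the rest. KIF23, the motor of the centralspindlin complex, had 16.5, 16.9 and 20.9 FPKM with 8OH-G miR-483, against 3.64, 3.38 and 4.27 FPKM with miR-483. Its log2 fold change of 2.00 (SE 0.108, limma adjusted p = 2.72e-06) was the highest fitted value among the 32 names on the log2(FPKM + 1) scale. With 0.1 FPKM added in place of 1, KIF18B (2.33) stood above KIF23 (2.23). KIF20A carries the chromosomal passenger complex to the central spindle, and had 21.8, 22.5 and 30.5 FPKM with 8OH-G miR-483 and 5.77, 5.81 and 6.13 FPKM with miR-483. KIF4A, which with PRC1 sets the overlap of central spindle microtubules, had 10.2, 10.6 and 13.1 FPKM with 8OH-G miR-483, against 2.45, 2.44 and 2.71 FPKM with miR-483. KIF4A has a near-identical copy, KIF4B, which was not analysed here, and reads of the copies could be split, so this level is uncertain. KIF20B, a cytokinesis motor, had 6.47, 6.75 and 9.30 FPKM with 8OH-G miR-483 and 1.47, 1.39 and 1.51 FPKM with miR-483, a 5.16-fold higher mean. KIF14, which works with citron kinase at the cleavage furrow, had 3.79, 3.78 and 5.33 FPKM with 8OH-G miR-483, against 1.19, 1.04 and 1.12 FPKM with miR-483. The groups were again fully separated in these 5 genes, as they were, upward, in 39.5% of all genes tested.

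The smaller fitted changes of KIF14 (1.31), KIF18A (1.40) and KIF15 (1.45) belong to the mitotic genes with the lowest levels, where adding 1 FPKM before taking logs shrinks a change. With a pseudocount of 0.1 the log2 fold changes of the 11 ran from 1.84 (KIF14) to 2.33 (KIF18B), and all 11 of their 95% intervals held the stretch from 2.05 to 2.13. Differences between the 11 genes were not tested. All 11 were highest in 8OH-G miR-483 replicate 3, at 1.08 to 1.41 times the mean of the other 8OH-G miR-483 libraries (median 1.27). The same library was highest for 6 of 6 proliferation genes (MKI67, TOP2A, CDK1, CCNB1, CCNB2 and CCNA2) and for 35.7% of all genes tested. These 6, listed with earlier results known, were all called higher, beside 34.9% of all genes tested. With that library left out, 9 mitotic kinesins could be tested and 9 passed. KIF20A then had a log2 fold change of 1.75, against 1.89 with all libraries. KIF15 and KIF18A did not reach 1 FPKM in 3 libraries when any 8OH-G miR-483 library was left out.

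Cargo kinesins were the larger class by level in every library. KIF5B is the ubiquitous heavy chain of conventional kinesin. It had 60.3, 58.4 and 65.5 FPKM with 8OH-G miR-483, against 48.9, 43.0 and 47.2 FPKM with miR-483, a log2 fold change of 0.40 (SE 0.076, limma adjusted p = 0.00216). KIF1C, a fast vesicle and RNA carrier, had 49.2, 47.6 and 47.3 FPKM with 8OH-G miR-483 and 71.3, 69.7 and 72.2 FPKM with miR-483. Its log2 fold change was -0.55 (SE 0.059, limma adjusted p = 8.15e-05). KIF5B was thus the most abundant kinesin in each 8OH-G miR-483 library, and KIF1C in each miR-483 library. The log2 fold changes of these genes stayed between 0.30 and 0.44 for KIF5B and between -0.65 and -0.54 for KIF1C over 16 alternative fits. KIF5B did not pass a test against a 1.2-fold change (adjusted p = 0.164).

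Members of the KIF3 group carry vesicles and the building blocks of cilia. KIF3A, which pairs with either KIF3B or KIF3C, had 5.62, 5.63 and 6.16 FPKM with 8OH-G miR-483, against 5.005, 3.41 and 4.82 FPKM with miR-483 (log2 fold change 0.34, SE 0.120, limma adjusted p = 0.0373). KIF3B had 8.59, 7.87 and 8.42 FPKM with 8OH-G miR-483 and 9.29, 9.44 and 9.16 FPKM with miR-483, and did not pass (limma adjusted p = 0.0827). KIF3C, at 24.3, 20.8 and 22.1 FPKM with 8OH-G miR-483 and 30.1, 27.5 and 28.3 FPKM with miR-483, fell by 0.34 on the log2 scale (SE 0.076, limma adjusted p = 0.00494). The groups did not overlap in any of these genes, which is common: 39.5% of all genes tested were separated upward and 23.7% downward. The call of KIF3A was lost with no filter on low values (limma adjusted p = 0.0532), without any 1 of the 8OH-G miR-483 replicates (0.0561 to 0.102) and without miR-483 replicate 2, where its log2 fold change was 0.20 (limma adjusted p = 0.076). After median-ratio scaling the call of KIF3A was lost too (adjusted p = 0.0988), and KIF3B was called lower (-0.24, adjusted p = 0.0151).

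Levels of the endosome and vesicle carriers differed little. KIF13A, which moves recycling endosomes, had 11.6, 9.82 and 12.003 FPKM with 8OH-G miR-483, against 9.35, 8.21 and 9.93 FPKM with miR-483. Its groups overlapped, and its limma adjusted p of 0.0498 became 0.0507 with a pseudocount of 0.1 and 0.182 after median-ratio scaling, and lay between 0.0154 and 0.152 with a library left out, with the call lost in 4 of these 6 fits. KIF1B, a carrier of mitochondria and vesicles, had 11.6, 10.2 and 12.4 FPKM with 8OH-G miR-483 and 10.8, 9.06 and 9.84 FPKM with miR-483, and did not pass (95% interval of the log2 fold change -0.02 to 0.40). KIF13B had 7.52, 7.06 and 6.97 FPKM with 8OH-G miR-483, against 8.40, 7.60 and 8.56 FPKM with miR-483. It did not pass as deposited (limma adjusted p = 0.0811) and was called lower after median-ratio scaling (-0.25, adjusted p = 0.0175). KIF16B, a motor of early endosomes, had 2.02, 1.76 and 2.01 FPKM with 8OH-G miR-483 and 2.00, 1.80 and 2.09 FPKM with miR-483, with a 95% interval of -0.21 to 0.17. Cargo kinesins called higher and lower were thus 3 and 2 as deposited, and 1 and 4 with either median-ratio scaling or quantile normalization. Without 8OH-G miR-483 replicate 1, 8OH-G miR-483 replicate 3 or miR-483 replicate 2, the higher count was 1.

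By summed level, mitotic kinesins held 36.7%, 38.8% and 41.8% of all kinesin FPKM in the 8OH-G miR-483 libraries, against 11.9%, 13.0% and 13.0% in the miR-483 libraries. In FPKM the mitotic sum was 137.8 ± 18.4 with 8OH-G miR-483 and 31.6 ± 1.22 with miR-483 (mean ± SD, n = 3 libraries each). The cargo sum was 178 ± 7.42 FPKM with 8OH-G miR-483 and 189 ± 8.14 FPKM with miR-483, a difference within the range of the libraries. Among the 10 most abundant kinesins of a library, 5 or 6 were mitotic with 8OH-G miR-483 and 2 with miR-483.

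**Figure D4:**
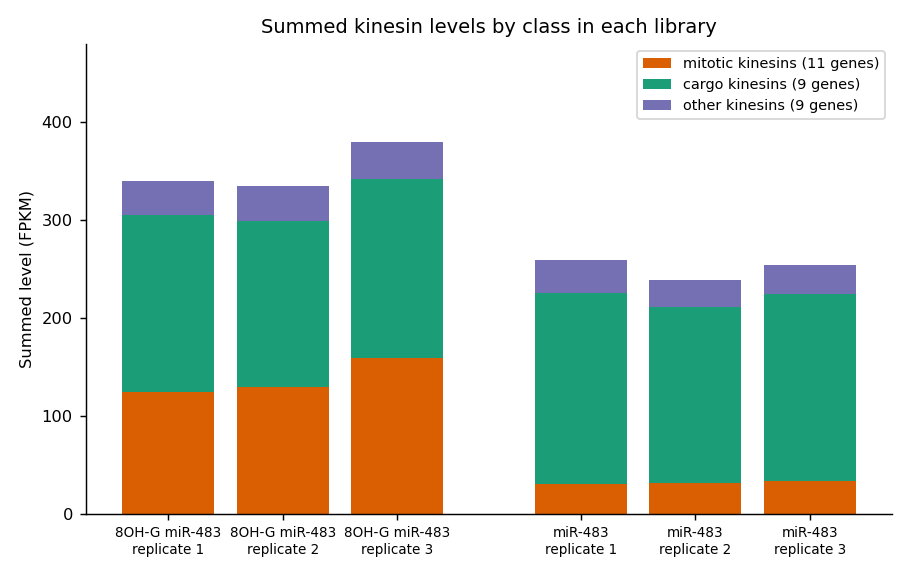
Summed level (FPKM) of the 11 mitotic, 9 cargo and 9 other kinesins in each library, with the 3 libraries of 8OH-G miR-483 on the left and the 3 of miR-483 on the right. The mitotic part is 125 to 159 FPKM with 8OH-G miR-483 and 30.9 to 33.0 FPKM with miR-483, while the cargo part is 169 to 183 FPKM and 180 to 195 FPKM in the same order of groups.

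Among the kinesins with other roles, KIF26A showed the largest fall of the family. It lacks motor activity and takes part in signalling. It had 1.80, 2.02 and 1.40 FPKM with 8OH-G miR-483, against 4.52, 4.37 and 4.18 FPKM with miR-483, a log2 fold change of -0.97 (SE 0.099, limma adjusted p = 6.31e-05). KIF21A, which restrains microtubule growth at the cell cortex, had 4.12, 3.76 and 4.54 FPKM with 8OH-G miR-483 and 2.13, 1.64 and 2.21 FPKM with miR-483, a 2.08-fold higher mean (limma adjusted p = 0.000266). KIF24, which trims microtubules at centrioles and holds back cilium formation, had 1.25, 1.12 and 1.41 FPKM with 8OH-G miR-483, against 0.338, 0.366 and 0.266 FPKM with miR-483. The groups did not overlap in these 3 genes, and KIF24 was tested only through its 8OH-G miR-483 libraries. Of all genes tested, 39.5% were separated upward and 23.7% downward.

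KIF7, a regulator of Hedgehog signalling at the tip of the cilium, had 4.42, 4.19 and 4.25 FPKM with 8OH-G miR-483, against 2.91, 3.00 and 2.86 FPKM with miR-483 (log2 fold change 0.43, SE 0.069, limma adjusted p = 0.00088). Its exons share 589 bases, in GENCODE 29, with those of TICRR, a replication gene on the opposite strand. TICRR had 2.42, 2.12 and 2.79 FPKM with 8OH-G miR-483 and 0.434, 0.569 and 0.588 FPKM with miR-483, and strandedness is not given in the sources used here. The part of TICRR in the KIF7 values was not tested. KIF2A, a microtubule depolymerase of spindle poles and neurons, had 16.97, 18.7 and 20.5 FPKM with 8OH-G miR-483 and 17.5, 12.5 and 14.0 FPKM with miR-483. Its groups overlapped, and its limma adjusted p of 0.0386 became 0.113 after median-ratio scaling and 0.0556 with no filter on low values. The call of KIF2A was also lost without 8OH-G miR-483 replicate 2 or 3 or miR-483 replicate 2 or 3, with limma adjusted p between 0.0707 and 0.118. KIF9, a motor of motile cilia, had 3.86, 4.16 and 4.20 FPKM with 8OH-G miR-483, against 3.98, 4.21 and 3.44 FPKM with miR-483, and did not pass (95% interval -0.13 to 0.25). KIF9 shares 870 exonic bases with its antisense gene KIF9-AS1, and 178 with KLHL18 on the opposite strand, so its values are uncertain. KLHL18 rose, at 9.73 ± 1.33 FPKM with 8OH-G miR-483 and 6.40 ± 0.634 FPKM with miR-483 (limma adjusted p = 0.0029).

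Low levels kept 5 names out of the test. KIF21B had 0.801 to 0.918 FPKM with 8OH-G miR-483 and 0.799 to 0.884 FPKM with miR-483. KIF27 had 0.741 to 0.911 FPKM with 8OH-G miR-483 and 0.652 to 0.851 FPKM with miR-483. KIF19, KIF28P and KIF9-AS1 lay between 0.0693 and 0.429 FPKM over all libraries. KIF1BP, which binds several kinesins and blocks their grip on microtubules, had 21.8, 22.3 and 21.8 FPKM with 8OH-G miR-483, against 17.8, 19.1 and 18.6 FPKM with miR-483. It rose by a log2 fold change of 0.24 (SE 0.061, limma adjusted p = 0.0108), and did not pass after median-ratio scaling (adjusted p = 0.077). Among genes with a row, further exonic overlaps on the opposite strand were found for KIF20A (CDC23, 68 bases, and BRD8, 132 bases), KIF4A (PDZD11, 77 bases), KIF18A (METTL15, 61 bases) and KIF24 (UBAP1, 143 bases), and on the same strand for KIF2A (IPO11, 428 bases). KIF28P shares 958 exonic bases with LINC01341 on the opposite strand and 81 with AHCTF1 on its own. Opposite-strand overlaps with genes that have no row included KIF22 (AC009133.4, 561 bases), KIF23 (AC027237.3, 231 bases), KIF2C (AL592166.1, 175 bases) and KIF13B (AC108449.3, 585 bases). The part of any overlapping gene in these kinesin values was not tested. CDC23 was at 13.8 ± 0.321 FPKM with 8OH-G miR-483 and 9.79 ± 0.104 FPKM with miR-483, and METTL15 at 3.01 ± 0.297 and 2.19 ± 0.230 FPKM in the same order (SD, n = 3 libraries each).

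Of 5 kinesins whose names do not start with KIF and a digit, 2 rose, 2 fell and 1 did not pass. Among all genes tested, 34.9% were called higher and 20.5% lower. CENPE, which walks chromosomes to the metaphase plate, had 6.80, 6.94 and 9.81 FPKM with 8OH-G miR-483, against 1.85, 1.43 and 1.65 FPKM with miR-483. KIFC1, a motor that clusters spindle poles, had 20.4, 22.0 and 22.9 FPKM with 8OH-G miR-483 and 4.04, 3.91 and 4.23 FPKM with miR-483 (log2 fold change 2.17, SE 0.071, limma adjusted p = 4.67e-07). Both rose. KIFC2 fell, with 12.6, 11.3 and 8.98 FPKM with 8OH-G miR-483 and 17.03, 17.8 and 17.4 FPKM with miR-483. KIFC3, which acts at cell junctions and in membrane traffic, fell too, with 21.1, 21.8 and 18.8 FPKM with 8OH-G miR-483 and 26.7, 29.5 and 30.0 FPKM with miR-483. STARD9, a motor of the material around centrioles, had 1.04 ± 0.110 FPKM with 8OH-G miR-483 and 1.14 ± 0.0999 FPKM with miR-483 and did not pass (limma adjusted p = 0.523).

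Of 18 partners and regulators of mitotic kinesins, 17 rose and 1 fell, beside 34.9% and 20.5% of all genes tested. Their median log2 fold change was 1.82, beside 0.09 for all genes. This list, like the adaptor and dynein lists below, was chosen with earlier results of these data known. Its counts are a description and not independent support. PLK1, a kinase that loads several of these motors, was at 39.3 ± 4.41 FPKM with 8OH-G miR-483 and 7.001 ± 0.946 FPKM with miR-483. PRC1, the central spindle bundler, was at 44.1 ± 6.89 FPKM with 8OH-G miR-483 and 8.40 ± 1.10 FPKM with miR-483, and CDCA8, of the passenger complex that KIF20A carries, at 15.1 ± 2.35 FPKM with 8OH-G miR-483 and 2.66 ± 0.189 FPKM with miR-483. These 3 had the largest fitted changes of the list. TPX2, a spindle assembly factor that binds KIF11, had a mean of 43.4 ± 6.47 FPKM with 8OH-G miR-483, against 9.88 ± 0.376 FPKM with miR-483. RACGAP1, the partner of KIF23 in centralspindlin, had 18.2 ± 2.62 FPKM with 8OH-G miR-483 and 3.87 ± 0.740 FPKM with miR-483. The gene that fell was NUMA1, which anchors dynein at the spindle poles, at 43.3 ± 1.27 FPKM with 8OH-G miR-483 and 54.9 ± 3.19 FPKM with miR-483 (n = 3 libraries each throughout).

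Adaptors of cargo kinesins had a median log2 fold change of -0.13, and of 16 tested, 7 fell, 1 rose and 8 missed the threshold, beside 20.5% lower and 34.9% higher among all genes. With median-ratio scaling 8 were lower and 1 higher, and with quantile normalization 9 and 1. The kinesin light chain genes differed: KLC4 had a mean of 5.89 ± 0.212 FPKM with 8OH-G miR-483 and 9.60 ± 0.645 FPKM with miR-483, and KLC1 a mean of 53.0 ± 3.30 FPKM with 8OH-G miR-483 and 68.5 ± 0.692 FPKM with miR-483. Both fell, whereas KLC2, at 18.7 ± 0.441 FPKM with 8OH-G miR-483 and 17.1 ± 0.186 FPKM with miR-483, did not pass (limma adjusted p = 0.109). FEZ1, a cargo adaptor best known from neurons, was 24.8 ± 2.87 FPKM with 8OH-G miR-483 and 36.7 ± 1.71 FPKM with miR-483. TRAK1 and TRAK2, which link kinesin to mitochondria, went in opposite directions, with log2 fold changes of -0.40 and 0.39. KIFAP3, the adaptor of the KIF3 motors, had 6.94 ± 0.683 FPKM with 8OH-G miR-483 and 7.88 ± 0.351 FPKM with miR-483 and did not pass (limma adjusted p = 0.118). SYBU was below 1 FPKM and was not tested.

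For the opposing motor, cytoplasmic dynein with dynactin and its regulators, 6 of 20 tested genes rose and 5 fell, which is near the 34.9% and 20.5% of all genes, at a median log2 fold change of 0.12. With median-ratio scaling the counts were 3 higher and 6 lower. The largest called changes were those of the light chain gene DYNLT1 (79.5 ± 4.86 FPKM with 8OH-G miR-483, 40.9 ± 5.15 FPKM with miR-483), of the dynein regulator NDE1 (14.8 ± 1.36 FPKM with 8OH-G miR-483, 22.5 ± 4.41 FPKM with miR-483) and of the subunit DYNC1LI1 (25.2 ± 1.64 FPKM with 8OH-G miR-483, 18.8 ± 2.13 FPKM with miR-483). DYNC1H1, the heavy chain that holds the motor, was at 67.1 ± 9.62 FPKM with 8OH-G miR-483 and 65.7 ± 5.52 FPKM with miR-483 (limma adjusted p = 0.874). It was named after its values were seen.

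**Figure D5:**
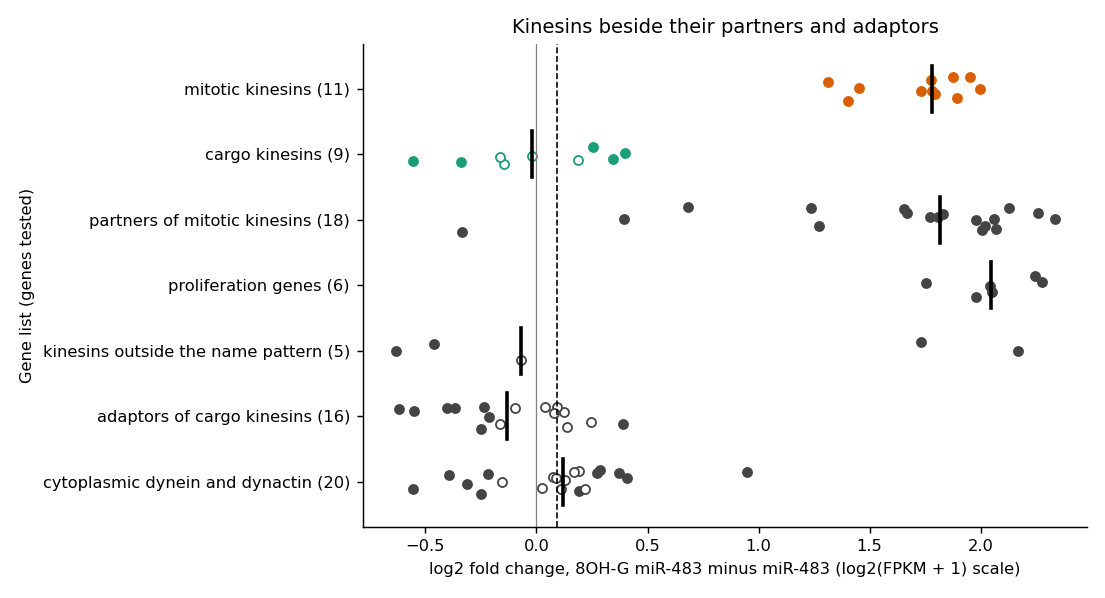
Log2 fold changes, 8OH-G miR-483 minus miR-483 (scale log2(FPKM + 1)), of single genes (circles, open where the adjusted p was 0.05 or more) in each list, with black bars at list medians and the dashed line at the median of all genes tested. The partners of mitotic kinesins have a median of 1.82 beside 1.78 for the mitotic kinesins, and the adaptors of cargo kinesins a median of -0.13 beside -0.02 for the cargo kinesins.

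Level ratios within a library were computed for 7 pairs, chosen after the values were seen. KIF23 over RACGAP1 was 0.996 ± 0.0645 with 8OH-G miR-483 and 0.990 ± 0.156 with miR-483 (exact permutation p = 0.9, two-sided, n = 3 libraries each). Its miR-483 values ran from 0.814 to 1.11, and a design of this size cannot show that the ratio was kept. KIF11 over TPX2 was 0.309 ± 0.00103 with 8OH-G miR-483 and 0.293 ± 0.0126 with miR-483, and KIF4A over PRC1 was 0.258 ± 0.0107 with 8OH-G miR-483 and 0.304 ± 0.0303 with miR-483. KIF1C over KIF5B was 0.817, 0.815 and 0.723 with 8OH-G miR-483, against 1.46, 1.62 and 1.53 with miR-483. The leading cargo motors thus stood in the opposite order in the groups, in 3 of 3 libraries each. KIF3C over KIF3A was 3.87 ± 0.396 with 8OH-G miR-483 and 6.65 ± 1.23 with miR-483, and KIF3B over KIF3A was 1.43 ± 0.0862 with 8OH-G miR-483 and 2.18 ± 0.513 with miR-483. KIF11 over KIF5B, a spindle motor over a cargo motor, was 0.218 ± 0.0206 with 8OH-G miR-483 and 0.0626 ± 0.00274 with miR-483. Apart from KIF23 over RACGAP1, the exact two-sided permutation p was 0.1 for each ratio, the smallest that 3 against 3 libraries allow. After adjustment over the 7 it was 0.117. For KIF1C over KIF5B, KIF3C over KIF3A and KIF3B over KIF3A the separation was fixed in advance. The first gene of each was lower and the second higher with 8OH-G miR-483, without overlap of the groups.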

How the data were processed

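RNA-seq values of 6 HUVEC libraries were used (3 per group, day 2). The authors deposited 1 column of decimal values per library for 20792 rows. Tools named in the submitters' processing notes are STAR, HTSeq, cutadapt and DESeq2, with the build hg19 and no versions or order. The deposited unit is not named and was inferred to be FPKM: totals of 1396540 to 1687280 exceed TPM or CPM, and values times exonic length, summed over 13977 uniquely named nuclear genes, were nearly equal across libraries. Whole reads were not recovered (of 364 low genes, 21.7% came near whole numbers at the best depth ratio of 200 tried, against a median of 17.3%), so no counting interval is given.

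For a repeated name the highest value per library was taken, and 24 rows with names turned into dates were left out. Genes that reached 1 FPKM in 3 or more libraries were fitted as log2(FPKM + 1) with limma 3.58.1 in R 4.3.3 (trend, robust, a single group term) and p-values adjusted by Benjamini-Hochberg, threshold 0.05. The script was tested on simulated data. Fold changes subtract miR-483 and so are positive where 8OH-G miR-483 is higher, and N-fold values are ratios of mean FPKM.

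Kinesins, classes and lists were chosen with earlier results of these data known. Every tested mitotic and cargo kinesin was named. Of each related list, the 3 largest called changes and genes fixed by name (PRC1, TPX2, RACGAP1, KLC1, KLC2, KIFAP3) were named. Names on the lists without a row were not analysed here. Seed matches of miR-483 were not analysed here. Promoters came from RefSeq. The labels do not say if replicate numbers pair the libraries, and they were not used as pairs in the main fit. Figures used matplotlib 3.10.9. Alternatives covered the pseudocount, filter, scaling, repeated names, a replicate block, the limma options, a fold threshold, the class of KIF2A, KIF21A and KIF21B, and each library left out.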

Additional observations from a re-analysis of the deposited data

How the results depend on the processing

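The mitotic count of 11 higher was 7 with a filter of at least 5 FPKM on the mean (7 tested), 10 with repeated names left out (KIF15 is one), 12 with KIF2A counted as mitotic, and 9 to 11 in the leave-one-out fits, where KIF15 and KIF18A could fall below the filter. It was 11 under the other alternatives, and 0 were called lower under any. Over 17 alternative fits the highest adjusted p of a mitotic kinesin was 0.000234. Cargo kinesins called higher (3) were 1 with no filter, median-ratio scaling, quantile normalization or equal nuclear totals without mitochondrial rows, and 0 with a fold threshold of 1.2. Those called lower (2) were 4 after median-ratio scaling or quantile normalization and 1 with the fold threshold. Leaving out each library gave 1 to 3 cargo and 2 to 4 other kinesins called higher, and 2 cargo and 1 other called lower. Other kinesins called higher (4) were 1, and called lower (1) were 0, with the 5 FPKM filter, since fewer genes were tested. They were 2 higher with the fold threshold, and 2 when KIF2A was counted as mitotic and KIF21A and KIF21B as cargo. All genes called higher and lower were 4433 and 2606, 2257 and 1179 with the fold threshold, and 3697 to 4100 and 2027 to 2490 with a library left out. KIF9 changed sign after median-ratio scaling (-0.019), after quantile normalization (-0.093) and without miR-483 replicate 3 (-0.0067; -0.0067 to 0.108 over the libraries left out). KIF16B changed sign without 8OH-G miR-483 replicate 2 (0.024) or miR-483 replicate 3 (0.012), and ranged from -0.058 to 0.024 over the libraries left out. Neither passed in any of these fits, and the cause was not tested. Same-numbered libraries deviated with correlations of 0.017, 0.332 and 0.012, and differently numbered libraries with -0.239 to 0.220. The labels do not say what a number marks, so pairing is unknown and was left out of the main fit. With the replicate block, 4 cargo kinesins were called higher and 2 lower, 3 other kinesins higher and 1 lower (KIF2A lost its call, adjusted p = 0.0568), 11 mitotic kinesins higher, and 4798 and 2796 of all genes higher and lower. Of the fits of single kinesins under an alternative, 391 kept direction and side of the threshold, 37 lost and 6 gained a call, and 5 changed sign.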
